A study of Mus musculus with 30 samples.

Results

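The 7 genes described here code for members of the glucose and monocarboxylate transporter families and for a chaperone of such transporters. They are Slc2a1 (GLUT1), Slc2a3 (GLUT3), Slc16a1 (MCT1), Slc16a3 (MCT4), Slc16a4 (MCT5), Slc16a9 (MCT9) and the chaperone gene Bsg (basigin). They were taken as a list of 7 symbols among 21820 protein-coding genes, and all 7 were found in every one of the 14 RNA-seq libraries. Acutely isolated brain ECs (n = 2) were GFP-positive cells sorted from cerebrum and cerebellum of adult male mice homozygous for Tie2-GFP, a transgene that marks ECs, and the GFP-negative cells (n = 2) came from the same kind of sort. For the acute ECs the study combined cerebrum data of its own with cerebellum data published earlier. WT cultures (n = 6) were ECs from adult male brains, purified with puromycin and grown for 8 days. Their replicates 1 and 2 came from C57BL/6J mice by isolation method A (36 read cycles), and the rest from Ctnnb1 flex3/+;Tie2-GFP mice by method B, read at a second facility for 150 cycles (replicates 3 and 4) or for 36 cycles (replicates 5 and 6). Stabilized cultures (n = 4, 36 cycles) used adult male mice of the genotype Ctnnb1 flex3/+;Pdgfb-CreER;Tie2-GFP, in which 4HT (4-hydroxytamoxifen, the agent that activates CreER) removes exon 3 of beta-catenin in ECs, by method A (replicates 1 and 2) or method B (replicates 3 and 4). The Ctnnb1 flex3/+;Tie2-GFP control mice were given 4HT as well and carried the same allele without Cre. The split of wells between the methods follows the study's methods section, and a legend of the study counts them differently. Replicates of a culture were wells of 1 experiment from pooled brains, so p-values between such replicates measure the spread between wells. ATAC-seq, which cuts open chromatin with a transposase, gave peak lists for 2 acute EC, 6 WT culture and 2 stabilized culture (method B) libraries.

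Glucose enters the brain through the ECs of the blood-brain barrier (BBB), and GLUT1 is the carrier that moves it across both of their faces. Monocarboxylate transporters carry lactate, pyruvate and ketone bodies together with a proton: MCT1 is the main form of brain ECs, whereas MCT4 is known as the lactate exporter of cells that rely on glycolysis. Basigin is a membrane glycoprotein with immunoglobulin domains that escorts MCT1 and MCT4 to the cell surface.

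Total estimated counts ran from 53421411 to 94686456 in the 4 libraries of sorted cells and from 24284843 to 65623544 in the cultures. In acute ECs all 6 EC markers averaged 1 TPM or more, with Pecam1 at 344 to 380 TPM (transcript abundance scaled to a fixed total per library), and the 6 summed to 2433 to 2649 TPM in acute ECs and 744 to 3578 TPM in cultures. Within this list Pecam1 stood at 214 to 1409 TPM in cultures, whereas Flt1 stood at 1134 to 1175 TPM in acute ECs and 44.4 to 190.5 TPM in cultures. The summed neuron markers stood at 2.58 to 4.57 TPM in acute ECs and 160 to 176 TPM in GFP-negative cells, and 5 erythrocyte markers summed to 5448 and 41099 TPM in acute ECs but to at most 1.39 TPM in cultures. Pericyte markers summed to 184 to 316 TPM in acute ECs and 3.66 to 16.6 TPM in cultures, astrocyte markers to 87.2 to 466 TPM and 3.36 to 45.7 TPM, and smooth muscle markers to 118 to 142 TPM and 160 to 1001 TPM. In the astrocyte list Gja1 made up most of the acute EC sum, at 65.9 to 464 TPM, whereas Aqp4 stood at 0.430 to 0.771 TPM. In the smooth muscle list Acta2 stood at 93.7 to 113 TPM in acute ECs and 153 to 909 TPM in WT cultures. Cnn1 was higher in WT cultures too, and Des overlapped. Myh11 went the other way, at 19.7 to 25.0 TPM in acute ECs and 0.502 to 3.11 TPM in WT cultures. Mitochondrial transcripts took 10.6% to 11.2% of counts in acute ECs and 0.667% to 2.58% in cultures. The part of these cells and of RNA quality in the differences below was not tested, and in bulk RNA fewer cells of a type cannot be told apart from less RNA per cell. Ctnnb1 itself stood at 230 to 747 TPM in WT cultures and 306 to 808 TPM in stabilized cultures, a gene total that does not show the exon 3 deletion.

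The DNA at the transcript starts of these genes is shown because open chromatin was called there in all or some of the libraries. The 200 bases that end 51 bases before the RefSeq start (GRCm38.p6, plus strand) are given for Slc2a1, Slc16a1 and Slc16a4, and for Slc16a3 the 200 bases just before the first exon base of Slc16a3-207 (GRCm38, plus strand). Capitals mark matches, on either strand, to 6 letter strings: ACGTG (hypoxia-response core), TGANTCA (AP-1), CTTTGAT (TCF/LEF), GGAATG (TEAD), GGGCGG (SP/KLF) and CCGGAAGT (ETS).
Slc2a1, chr4:119108495-119108694: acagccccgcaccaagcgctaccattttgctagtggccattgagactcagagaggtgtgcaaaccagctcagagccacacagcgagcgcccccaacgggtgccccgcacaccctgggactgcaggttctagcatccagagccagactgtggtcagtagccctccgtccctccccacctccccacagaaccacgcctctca
Slc16a1, chr3:104638414-104638613: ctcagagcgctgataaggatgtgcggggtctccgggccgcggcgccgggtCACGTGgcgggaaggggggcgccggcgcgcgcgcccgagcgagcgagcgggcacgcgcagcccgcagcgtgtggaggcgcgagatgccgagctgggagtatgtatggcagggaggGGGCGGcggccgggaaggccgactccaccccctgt
Slc16a4, chr3:107290980-107291179: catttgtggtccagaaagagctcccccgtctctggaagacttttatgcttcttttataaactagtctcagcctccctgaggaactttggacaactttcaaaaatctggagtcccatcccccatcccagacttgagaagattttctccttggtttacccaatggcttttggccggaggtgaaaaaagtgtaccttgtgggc
Slc16a3, chr11:120948853-120949052: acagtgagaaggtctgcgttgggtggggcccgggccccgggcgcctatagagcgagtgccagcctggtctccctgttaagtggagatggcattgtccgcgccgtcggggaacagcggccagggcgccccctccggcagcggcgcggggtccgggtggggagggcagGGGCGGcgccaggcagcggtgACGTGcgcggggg
None of the 6 strings was found in these windows of Slc2a1 or Slc16a4. The Slc16a1 window held ACGTG within the palindrome CACGTG and 1 GGGCGG, and the Slc16a3 window shown held 1 ACGTG and 1 GGGCGG. The RefSeq window of Slc16a3 placed like the other 3 (chr11:120948817-120949016) held none of the strings. Among 32851 RefSeq promoter windows of the same length and placing, 12.9% held ACGTG and 24.6% GGGCGG. A match of letters is a description and not a bound site. A RefSeq promoter entry was matched for 5 of the 7 genes, Slc16a9 being the fifth.

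The abundance of each transcript is given in TPM, which corrects for transcript length. Tests were run on the estimated counts of all genes with edgeR's quasi-likelihood test and Benjamini-Hochberg adjustment, and calls needed an adjusted p under 0.05, a fold change over 2 and at least 5 TPM in every library of the higher group. In acute ECs the order of mean abundance was Bsg, Slc2a1, Slc16a1, Slc16a4, Slc16a9, Slc2a3 and Slc16a3, and only the last 2 had overlapping ranges. In WT cultures Slc16a3 came next after Bsg and Slc2a1, whose ranges overlapped each other, and Slc16a3, Slc16a1, Slc16a9 and Slc16a4 each overlapped the next in the order.

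**Figure D1:**
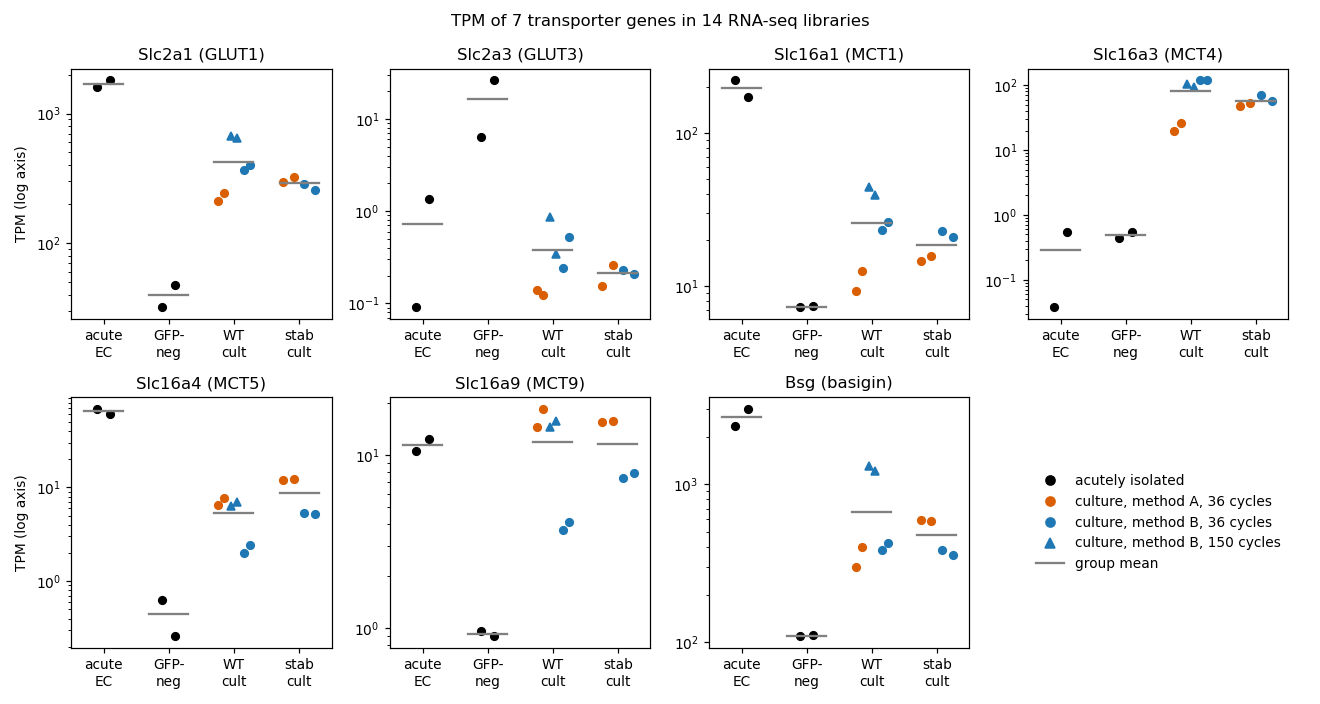
TPM (log axis) of each gene in the 14 libraries, by group; points are libraries, colours and shapes give the isolation method and read cycles, and grey lines are group means. Slc2a1, Slc16a1, Slc16a4 and Bsg were higher in both acute EC libraries than in every culture, Slc16a3 was higher in every culture than in every acute library, and Slc16a9 overlapped between acute ECs and WT cultures.

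The first comparison asks which of these transcripts mark ECs within the adult brain. Of the 7, 5 were called higher in acute ECs than in GFP-negative cells (Slc2a1, Slc16a1, Slc16a4, Slc16a9 and Bsg) and 1 was called lower (Slc2a3), where 8.3% of 15102 genes tested were called higher and 7.56% lower. Higher genes made up 52.3% of all calls, against 39.6% with library size as the only scaling and 42.3% with an offset for transcript length.

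Slc2a1 (ENSMUSG00000028645.11, chr4:119108711-119137983 of GRCm38, plus strand) stood at 1588 and 1816 TPM in acute ECs and at 31.9 and 47.3 TPM in GFP-negative cells. The ratio of mean TPM was 43.0, and the fitted log2 fold change was 5.38 (SE 0.41, adjusted p = 0.00164 by edgeR). Slc2a1 supplied 99.7% of the summed TPM of 12 facilitative glucose transporter genes in acute ECs and 44.9% in GFP-negative cells. The remainder in GFP-negative cells lay mainly in Slc2a4 (GLUT4, the insulin-responsive form of muscle and fat), at 28.0 ± 23.9 TPM (SD, n = 2), and in Slc2a3. Slc2a4 was called lower in ECs (log2 fold change -3.64, adjusted p = 0.00884 by edgeR).

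Slc2a3 (ENSMUSG00000003153.10, chr6:122727809-122801640, minus strand) codes for the glucose carrier known from neurons. It stood at 0.0903 and 1.34 TPM in acute ECs and at 6.28 and 26.4 TPM in GFP-negative cells. Those cells held the neuron markers and markers of other cell types, such as astrocytes (1379 to 3326 TPM summed) and oligodendrocytes (690 to 2538 TPM). Slc2a3 was lower in ECs by edgeR (log2 fold change -4.71, SE 0.64, adjusted p = 0.00475). The groups did not overlap, but the GFP-negative value of 26.4 TPM rested mostly on Slc2a3-208, a transcript of 315 bases marked for nonsense-mediated decay. With protein-coding transcripts alone the GFP-negative libraries stood at 6.05 and 3.28 TPM, and the call was lost to the TPM minimum (log2 fold change -4.67, adjusted p = 0.0131 by edgeR). With the offset for transcript length it was lost too (-4.49, adjusted p = 0.0571 by edgeR).

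Among the monocarboxylate transporters, Slc16a1 (ENSMUSG00000032902.1, chr3:104638668-104658462, plus strand) stood at 223 and 172 TPM in acute ECs and at 7.29 and 7.43 TPM in GFP-negative cells (log2 fold change 5.21, SE 0.53, adjusted p = 0.00224 by edgeR). Slc16a4 (ENSMUSG00000027896.15, chr3:107291230-107312115, plus strand), whose protein has no settled substrate, was the most EC-restricted of the members by ratio. Its values were 68.9 and 61.2 TPM in acute ECs and 0.630 and 0.259 TPM in GFP-negative cells, a ratio of mean TPM of 146 (log2 fold change 6.93, SE 0.82, adjusted p = 0.00334 by edgeR). Slc16a9 (ENSMUSG00000037762.6, chr10:70245100-70285968, plus strand), linked to carnitine transport, stood at 10.5 and 12.4 TPM against 0.964 and 0.899 TPM (log2 fold change 4.13, adjusted p = 0.00218 by edgeR). Slc16a3 (ENSMUSG00000025161.16, chr11:120948480-120960868, plus strand) was scarce in both populations, at 0.0376 and 0.541 TPM in acute ECs and 0.447 and 0.552 TPM in GFP-negative cells, and was not called (log2 fold change -1.71, adjusted p = 0.24 by edgeR).

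Bsg (ENSMUSG00000023175.15, chr10:79704491-79711969, plus strand) was the most abundant of the 7, at 2346 and 2992 TPM in acute ECs. In GFP-negative cells it stood at 109 and 111 TPM, a ratio of mean TPM of 24.2 (log2 fold change 4.92, SE 0.41, adjusted p = 0.00173 by edgeR). Slc16a7 (MCT2, the high-affinity form of neurons) was called lower in ECs (log2 fold change -4.30, adjusted p = 0.00548 by edgeR). Ldhb, the lactate dehydrogenase subunit that favours lactate use, stood at 2.49 TPM in ECs and 198 TPM in GFP-negative cells on average (log2 fold change -5.56, adjusted p = 0.00164 by edgeR), and Bdh1, a ketone body enzyme, was called lower too (-6.56, adjusted p = 0.00243), as the other call among 9 enzymes and carriers. Neither chaperone among Emb and Nptn was called, and Txnip was the call of the GLUT1 trafficking list (1.31, adjusted p = 0.0339 by edgeR). Of 10 tested genes of oxygen sensing and its targets, Epas1 (3.09, adjusted p = 0.00312) and Ndrg1 (2.03, adjusted p = 0.0121) were called higher in ECs and Vegfa lower (-5.33, adjusted p = 0.0417), all by edgeR.

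The second comparison asks what 8 days in culture did to these transcripts. Of the 7, 5 were called lower in WT culture (Slc2a1, Slc16a1, Slc16a4, Slc16a9 and Bsg) and 1 was called higher (Slc16a3), where 10.2% of 13784 genes tested were called lower and 13.5% higher. The acute EC libraries are those of the comparison with GFP-negative cells. The median log2 fold change was -2.07 over the 7 genes and 0.10 over all genes tested. Acute ECs were read for 75 cycles after amplification and cultures for 36 or 150 cycles, so the library protocol and culture cannot be told apart.

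Slc2a1 fell from 1588 and 1816 TPM in acute ECs to between 210 and 676 TPM in WT cultures (median 383). No WT culture reached the acute level, and mean TPM in culture was 24.9% of that in acute ECs. The log2 fold change was -2.07 (SE 0.36, adjusted p = 0.00209 by edgeR). With method A cultures alone it was -2.61, with method B cultures alone -1.86 and with an offset for transcript length -2.72, and all 3 were called.

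How Slc2a1 TPM was divided among transcripts bears on this value. The full-length protein-coding transcript Slc2a1-201 (10 exons, 3260 bases) took 3.55% and 3.84% of Slc2a1 TPM in acute ECs, and 36.8% to 85.6% in WT cultures. In acute ECs 54.6% and 49.7% went to Slc2a1-202, an annotated 698-base model of 5 exons that holds an exon of its own (chr4:119116007-119116120), and at most 0.78% went to it in WT cultures. Slc2a1-204, which skips the 163-base exon chr4:119133097-119133259 of Slc2a1-201 and is marked for nonsense-mediated decay, took 41.7% and 46.1% in acute ECs. In WT cultures Slc2a1-204 took at most 15.4% in the 150-cycle libraries and 45.3% to 62.4% in the 36-cycle libraries. These are shares of TPM, in which short transcripts weigh more than in counts. By estimated counts Slc2a1-202 held 49859 of 314069 and 26148 of 181231 in acute ECs, and Slc2a1-204 held 219850 and 128783. On its own, Slc2a1-201 stood at 56.4 and 69.7 TPM in acute ECs and at 77.4 to 570 TPM in WT cultures, in TPM the opposite direction from the gene total. By estimated counts it held 44159 of 94686456 and 26130 of 55701811 in the acute EC libraries. The method A WT cultures held 7268 of 24284843 and 12089 of 33382007, a lower fraction, and the method B WT cultures held a higher one. With protein-coding transcripts alone, the fall of Slc2a1 was no longer called (log2 fold change -1.06, SE 0.44, adjusted p = 0.077 by edgeR). GFP-negative cells, prepared like acute ECs, divided Slc2a1 TPM similarly, with 44.4% and 47.4% on Slc2a1-202.

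**Figure D2:**
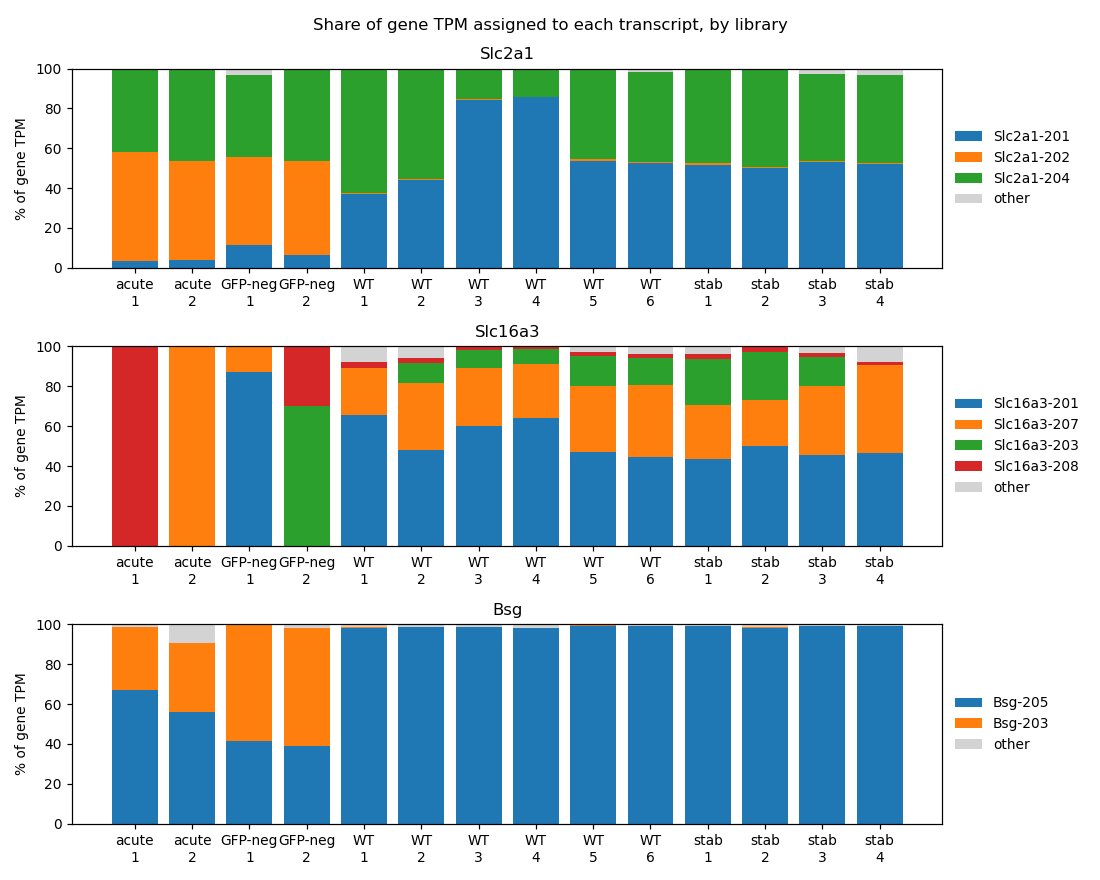
Share of gene TPM (percent) given to each transcript of Slc2a1, Slc16a3 and Bsg in each library; colours are transcripts that take at least 10% in some group, and grey is the rest. Slc2a1-202 took 49.7% and 54.6% in the acute EC libraries and at most 0.78% in cultures, and Bsg-203 took at most 0.756% in cultures.

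Slc2a3 stayed low. Its WT culture values ran from 0.123 to 0.871 TPM (median 0.294) and lay within the range of the acute ECs, and it was not called (log2 fold change -0.48, SE 0.69, adjusted p = 0.589 by edgeR). The acute ECs held 86.2 and 104 estimated counts of it, and the WT cultures 8.18 to 112.

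Slc16a1 dropped to between 9.33 and 44.6 TPM in WT cultures (median 25.0), below the 223 and 172 TPM of both acute EC libraries. Its log2 fold change was -4.69 (SE 0.44, adjusted p = 0.000147 by edgeR), and on the ratio of mean TPM it was 7.60 times higher in acute ECs. With an offset for transcript length the log2 fold change was -3.72, with method A cultures alone -5.56 and without GFP-positive replicate 1 -4.07, each of them called. The 6151 genes at 5 TPM or more in both groups had a median ratio of 1.38 in culture over acute ECs. All 3 culture experiments lay below the acute level, with the method A wells lowest at 9.33 and 12.6 TPM.

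Slc16a4 fell to between 2.02 and 7.75 TPM in WT cultures (median 6.39) from 68.9 and 61.2 TPM (log2 fold change -4.32, SE 0.44, adjusted p = 0.000207 by edgeR). Bsg fell to between 299 and 1297 TPM (median 412) from 2346 and 2992 TPM (log2 fold change -2.75, SE 0.32, adjusted p = 0.000342 by edgeR). Neither gene overlapped between the groups, and Slc16a1, Slc16a4 and Bsg were called lower under each of the 21 alternatives tried. With method A cultures alone Slc16a4 was at -3.70. In acute ECs Bsg TPM was divided between Bsg-205 (67.0% and 56.3%) and the shorter Bsg-203 (31.6% and 34.2%), whereas Bsg-205 took 98.3% to 99.3% in WT cultures. GFP-negative cells, prepared like acute ECs, had 58.4% and 59.5% on Bsg-203.

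Slc16a3 showed the opposite course. It went from 0.0376 and 0.541 TPM (29 and 24 estimated counts) in acute ECs to between 19.4 and 121 TPM in WT cultures (median 100.1). Every culture lay far above every acute library (log2 fold change 8.02, SE 1.14, adjusted p = 0.000853 by edgeR), and it was called higher in all 21 alternatives, at 6.61 to 8.41. At these low counts the acute TPM depends on the transcript: all reads of replicate 1 were given to the 4335-base Slc16a3-208 and all of replicate 2 to the 974-base Slc16a3-207. In cultures Slc16a3-201 took the largest mean share, and Slc16a3-207, whose first exon follows directly on the bases shown above, took 23.4% or more in every WT culture. Of the sum of Slc16a1 and Slc16a3, the chaperoned pair, Slc16a3 made up 0.0168% and 0.313% in acute ECs and 67.5% to 83.4% in WT cultures. Bsg stood at 10.5 and 17.3 times that sum in acute ECs and at 2.73 to 10.4 times in WT cultures.

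Slc16a9 depended on the unit. Its TPM was 10.5 and 12.4 in acute ECs and 3.67 to 18.5 in WT cultures (median 14.6), so the groups overlapped and the ratio of mean TPM was 1.04. On TMM-scaled counts (counts divided by library size and edgeR's scaling factor) it stood at 156 and 131 in acute ECs and at 16.3 to 68.3 in WT cultures, without overlap, and it was called lower (log2 fold change -1.92, SE 0.52, adjusted p = 0.0155 by edgeR). That call was lost with an offset for transcript length (-0.59, adjusted p = 0.433), and, at log2 fold changes close to the full fit, without GFP-positive replicate 1 (-1.78, adjusted p = 0.0884) or 2 (-2.06, adjusted p = 0.0532), with wells summed (-1.82, adjusted p = 0.0516) and with 36-cycle cultures only (-1.81, adjusted p = 0.0514), all by edgeR. It was -1.15 with method A cultures alone and -2.53 with method B cultures alone, both called.

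**Figure D3:**
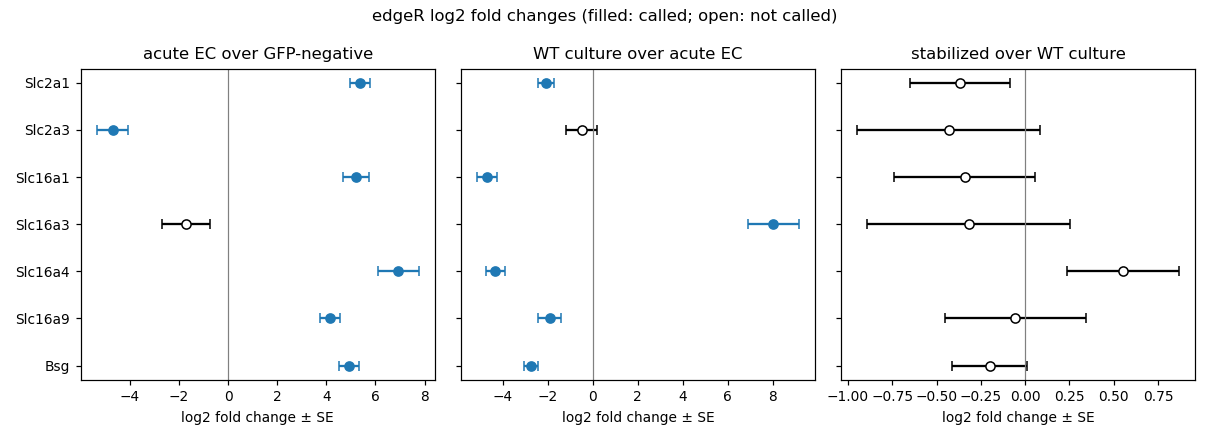
Fitted log2 fold changes (points) ± SE (bars) of the 7 genes in 3 comparisons, with filled points for called genes and a narrower axis in the third panel. Slc16a3 moved up by 8.02 in WT culture while 5 others moved down, and none of the 7 was called between stabilized and WT cultures.

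Genes next to these transporters were counted by list. Among 10 other facilitative glucose transporters, 7 were tested and 1 was called higher in WT culture: Slc2a8 (GLUT8, an intracellular carrier), at 3.32 ± 2.11 TPM in acute ECs (SD, n = 2) and 16.9 ± 16.4 TPM in WT cultures (SD, n = 6; log2 fold change 1.95, adjusted p = 0.0148 by edgeR). None of the 4 sodium-coupled carriers passed the count filter. Of the other immunoglobulin-domain chaperones, Nptn (neuroplastin) was called lower (-1.15, adjusted p = 0.0128 by edgeR), and Emb (embigin), at 0.989 TPM on average in cultures, lay under the TPM minimum. Both arrestin-like proteins known to draw GLUT1 into the cell were called higher, Arrdc4 by 3.08 and Txnip by 1.39 on the log2 scale (adjusted p = 0.000546 and 0.00666 by edgeR). Among 9 enzymes and carriers, only Ldha, the lactate dehydrogenase subunit that favours lactate formation, was called, rising from 198 ± 19.5 to 1198 ± 794 TPM (mean ± SD, log2 fold change 2.17, adjusted p = 0.0279 by edgeR). Of 11 genes of oxygen sensing and its targets, 4 were called higher and 2 lower. Adm (adrenomedullin) rose by 6.13, Egln3 (a prolyl hydroxylase) by 5.55 and Bnip3 (a mitophagy receptor) by 2.67, whereas Epas1 (HIF-2alpha, abundant in ECs) fell by 3.65 on the log2 scale (adjusted p = 0.000264, 0.00985, 0.00161 and 0.000874 by edgeR).

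The WT cultures differed among themselves. All 7 members were called between the 3 culture experiments, where 89.8% of 13050 genes tested were, so the count is not particular to these genes. The largest difference between experiments was 2.33 for Slc16a3 (adjusted p = 7.69e-09 by edgeR), 1.97 for Slc16a9 (adjusted p = 8.31e-08) and 1.77 for Slc2a3 (adjusted p = 0.00694), and 0.72 for Bsg (adjusted p = 5.74e-05), all on the log2 scale. Slc16a3 averaged 22.9 TPM in the method A wells and 100.1 and 119 TPM in the method B experiments. Slc16a9 ran the other way, with 16.6 TPM in the method A wells, 15.1 TPM in the 150-cycle wells and 3.90 TPM in the method B wells read for 36 cycles. On TMM-scaled counts, the scale of the fits, the spacing differed. In the same order the wells averaged 49.5, 88.5 and 261 for Slc16a3 and 64.7, 33.0 and 17.3 for Slc16a9. The method A wells differed from the method B wells read for 36 cycles in isolation method and mouse genotype, and the method B experiments differed from each other in facility and read cycles, so within either pair these cannot be told apart.

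The third comparison asks whether stabilized beta-catenin changed these transcripts in culture. None of the 7 was called. In the same fit 0 of 12958 genes were called, a background of 0%, although 1344 (10.4%) had an unadjusted p under 0.05, and DESeq2 called 15 higher and 3 lower. The log2 fold changes were -0.37 for Slc2a1 (SE 0.28), -0.43 for Slc2a3 (SE 0.51), -0.34 for Slc16a1 (SE 0.40), -0.32 for Slc16a3 (SE 0.57), 0.55 for Slc16a4 (SE 0.32), -0.06 for Slc16a9 (SE 0.40) and -0.20 for Bsg (SE 0.21), with adjusted p from 0.552 to 0.965 by edgeR. Stabilized cultures stood at 258 to 321 TPM for Slc2a1, 14.7 to 23.2 TPM for Slc16a1, 47.1 to 70.4 TPM for Slc16a3, 7.35 to 15.8 TPM for Slc16a9 and 355 to 596 TPM for Bsg, all within the range of the WT cultures. Slc16a4 was at 12.0 and 12.2 TPM in the method A stabilized wells, above every WT culture (2.02 to 7.75 TPM), and at 5.36 and 5.21 TPM in the method B wells. On TMM-scaled counts the method A stabilized wells were close to their WT wells, at 17.9 and 16.6 against 16.9 and 16.3. Slc16a1, Slc2a1 and Bsg lay below both acute EC libraries in every stabilized culture. In the 7 neighbouring gene lists no gene was called either.

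Within isolation methods the values parted. In method A (2 wells against 2), where 5.39% of genes were called higher and 0.918% lower, no member was called. Slc16a9 was at 40.9 and 36.6 TMM-scaled counts in stabilized wells against 61.1 and 68.3 in WT wells (log2 fold change -0.80, SE 0.09, adjusted p = 0.000998 by edgeR, short of a fold change of 2). In method B at 36 cycles, where 1.08% were called higher and 0.28% lower, Slc16a9 was at 34.6 and 38.8 against 16.3 and 18.3 (log2 fold change 1.07, SE 0.09, adjusted p = 0.00103 by edgeR) and was called higher. Slc16a4 was called higher there too, at 15.0 and 15.7 against 5.72 and 6.45 TMM-scaled counts (log2 fold change 1.32, SE 0.09, adjusted p = 0.000782 by edgeR), and it moved by -0.00 in method A. On the TPM scale the method A values are shifted as a whole, since the median ratio of stabilized over WT was 1.56 over 7321 genes there and 0.91 over 6888 genes in method B. Slc2a1 had a TPM ratio of 1.36 in method A although its fitted log2 fold change was -0.30. A test of the difference between the methods, chosen after the data were seen, gave an adjusted p under 0.05 for 4 of the 7 members by edgeR (Slc16a1, Slc16a3, Slc16a4 and Slc16a9), where 49.6% of 13356 genes did.

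**Figure D4:**
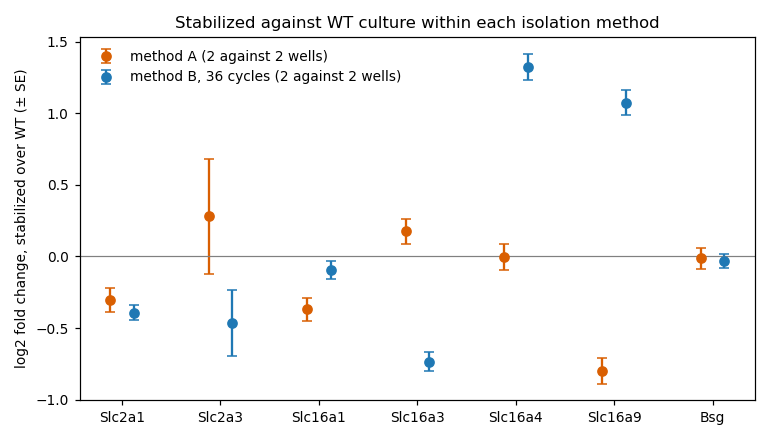
Fitted log2 fold change ± SE of stabilized over WT culture, for method A (orange) and method B read for 36 cycles (blue), 2 wells against 2 in each. Slc16a9 lay at -0.80 in method A and 1.07 in method B, and Bsg lay near 0 in both.

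Open chromatin was described from the ATAC-seq peaks, merged over the 10 libraries into 126224 regions of which 72 lay within 20 kb of a member. They were placed by distance alone, and some lay nearer to another gene than to the member. Of these 72, 19 were present in both acute EC and all 6 WT culture libraries, 6 in all WT cultures and no acute library, 2 in both acute libraries and no WT culture, and 45 were mixed. Over all regions the shares were 13.4%, 8.09%, 2.93% and 75.5%. The acute libraries held 31779 and 37384 peaks and the cultures 33122 to 98732, and the part of depth in a missing peak was not tested. Fold enrichment is the peak caller's height over local background.

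The transcript starts of Slc2a1, Slc16a1, Slc16a9 and Bsg were open in all 10 libraries. At Slc2a1 fold enrichment was 12.4 and 10.8 in acute ECs and 7.77 to 11.5 in WT cultures, and at Slc16a1 it was 16.6 and 14.8 in acute ECs and 7.18 to 15.4 in WT cultures. The start of Slc16a4 was open in both acute libraries (12.8 and 11.0) and in 5 of 6 WT cultures (6.17 to 12.3). Slc2a1, Slc16a1, Slc16a4 and Bsg were called lower in culture as transcripts, while a peak was called at their starts in every culture, except at Slc16a4 in WT replicate 2. The annotated start of Slc2a3, that of a long transcript, was open in all 10 libraries too, at 3.67 and 4.33 in acute ECs and 4.03 to 4.87 in WT cultures. The start of Slc16a3-207 (chr11:120948877-120949228) had no peak in acute ECs or in the method A cultures, whereas it had one in the 4 method B WT cultures (3.12 to 5.63) and both stabilized cultures (4.55 and 3.77). A second Slc16a3 region, 2521 bases into the gene and over the annotated starts of the minor transcripts Slc16a3-204 and Slc16a3-206, was open in all 10 libraries, at 11.2 and 8.79 in acute ECs and 7.12 to 15.0 in WT cultures.

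The regions open in acute ECs alone or in cultures alone lay at Slc2a1, Slc2a3 and Bsg. Slc2a1 had 3 regions open in all 8 cultures and in no acute library, in introns at 10079 and 17386 bases from the gene start and downstream at 38316 bases, with fold enrichment of 3.70 to 8.06, 4.02 to 6.43 and 5.81 to 10.8 in WT cultures. A region 12.2 kb upstream of Slc2a1 (chr4:119096352-119096748) leaned the other way, at 7.04 and 5.48 in acute ECs and 2.91 to 3.43 in the 4 method B WT cultures, with no peak in method A cultures. A peak that overlapped the exon of Slc2a1-202 was present in 5 of 6 WT cultures and in neither acute library. Slc2a3 had regions 16.2 and 22.4 kb upstream of the start of Slc2a3-201, its full-length coding transcript, that were open in all 8 cultures and no acute library. The nearer one reached 6.66 to 20.6 in WT cultures, in cells in which Slc2a3 did not exceed 0.871 TPM. Bsg had the 2 regions open in acute ECs alone, 4.5 kb upstream (4.21 and 3.25) and 8848 bases downstream of the gene start (2.99 and 2.09), and an intron region open in cultures alone (4.45 to 10.9). A region 19.1 kb upstream of Slc16a9, with Mrln as its nearest gene, stood at 12.9 and 8.16 in acute ECs. It stood at 3.46 and 3.12 in WT replicates 3 and 4, and had no peak in the other 6 cultures.

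The 200 bases around the peak summit (GRCm38, plus strand) are given for 4 of these regions, with capitals for the same 6 strings. The first was open in acute ECs alone and the other 3 in cultures alone.
Bsg upstream, chr10:79699880-79700079: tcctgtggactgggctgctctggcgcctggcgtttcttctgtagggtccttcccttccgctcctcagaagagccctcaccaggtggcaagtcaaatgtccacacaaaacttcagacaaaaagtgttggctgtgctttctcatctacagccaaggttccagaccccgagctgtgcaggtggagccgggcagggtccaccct
Bsg intron, chr10:79707807-79708006: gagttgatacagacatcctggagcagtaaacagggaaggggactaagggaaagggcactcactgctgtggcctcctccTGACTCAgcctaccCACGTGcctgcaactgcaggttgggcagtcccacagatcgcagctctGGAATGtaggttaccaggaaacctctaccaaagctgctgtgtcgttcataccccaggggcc
Slc2a1 intron, chr4:119125997-119126196: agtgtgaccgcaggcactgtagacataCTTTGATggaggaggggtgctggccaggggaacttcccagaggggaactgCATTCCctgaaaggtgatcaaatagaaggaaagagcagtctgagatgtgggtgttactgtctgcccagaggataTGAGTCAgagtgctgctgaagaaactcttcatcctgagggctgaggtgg
Slc2a3 upstream, chr6:122758824-122759023: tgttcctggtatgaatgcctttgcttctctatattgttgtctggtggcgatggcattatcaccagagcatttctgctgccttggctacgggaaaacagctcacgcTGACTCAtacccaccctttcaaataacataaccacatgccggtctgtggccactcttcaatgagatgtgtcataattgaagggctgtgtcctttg
The Bsg region of acute ECs held none of the 6 strings. The culture regions shown each held 1 AP-1 string, the Bsg and Slc2a1 introns also held 1 TEAD string, the Slc2a1 intron held 1 TCF/LEF string, and the Bsg intron held the hypoxia-response core on both strands. Of all 6 culture-only regions at members, 4 held the AP-1 string, whereas the Slc2a1 region at 10079 bases held none of the 6 strings and the Slc2a3 region 22.4 kb upstream held the TEAD string alone. The AP-1 string was found in 49.3% of 10207 summit windows of culture-only regions, in 3.54% of 3671 windows of acute-only regions and in 25.1% of all 125880 windows on assembled chromosomes. The TCF/LEF string was found in 2.25%, 11.6% and 3.04% of the same windows.

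**Figure D5:**
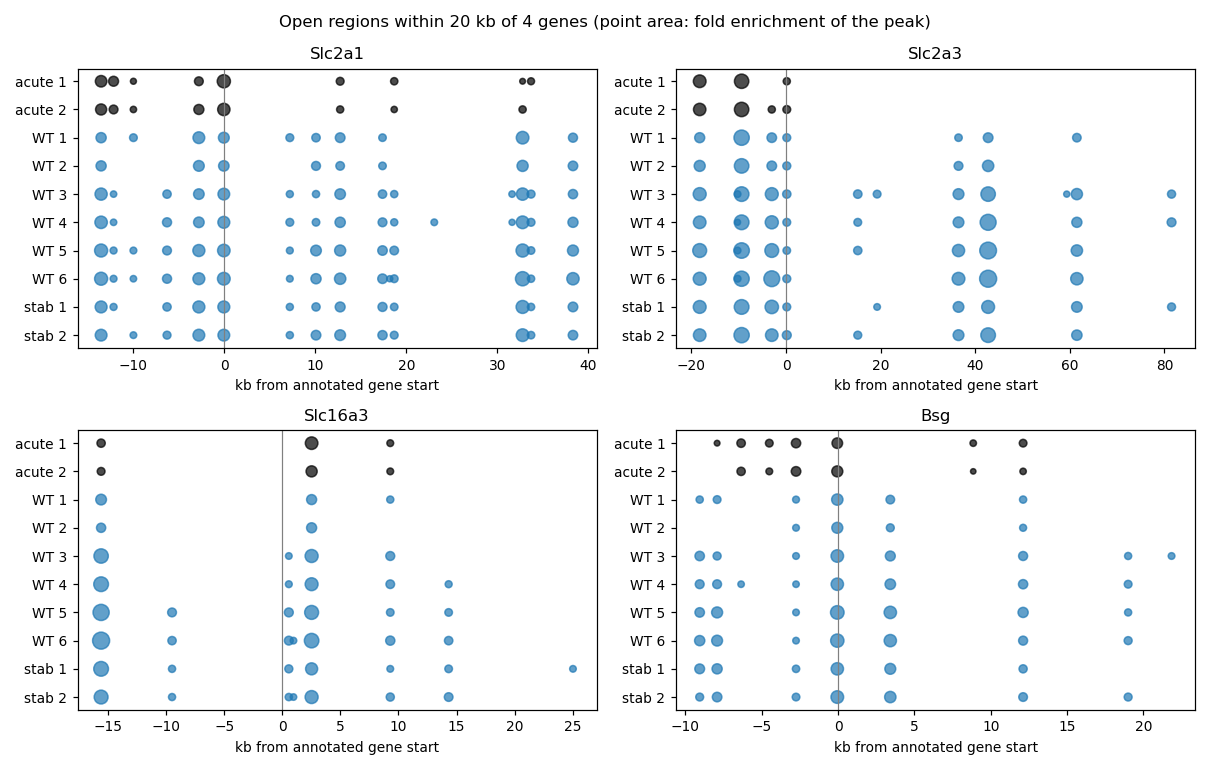
Open regions within 20 kb of Slc2a1, Slc2a3, Slc16a3 and Bsg in each ATAC-seq library (rows), placed by distance in kb from the annotated gene start, which for Slc2a3 is that of a long transcript; point area is fold enrichment, black for acute ECs and blue for cultures. The regions at 36455 and 42716 bases within the Slc2a3 gene model have points in all 8 cultures and none in acute ECs.

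The genes whose pattern was most like that of each member were ranked by Pearson's r of log2(TPM + 1) over the 14 libraries, among 10689 genes at 5 TPM or more in at least 2 libraries, as a description of libraries that share groups and protocols. Slc2a1 was most like Slc39a8 (a zinc and manganese carrier, r = 0.98), Bsg (0.96) and Klhl5 (0.96). Bsg was most like Itm2a (0.98), Slc39a8 (0.97) and Il10rb (0.96), and Slc16a1 most like Rabl2 (0.97), Itm2a (0.96) and Slc7a3 (0.96). Slc16a4 followed Zfp366, Palmd and Tdrp (each 0.97), and Slc16a9 followed Cdkn2b (0.98), Ly6a (0.98) and Cd34 (0.97). The rise of Slc16a3 was closest to that of Hmga2, Pkp2 and Crct1 (each 0.99), and Slc2a3 was closest to Naaa (0.99), Sox2 (0.98) and Grik5 (0.98). With a pseudocount of 0.1, none of these 3 genes remained for Slc16a3 or Slc2a3. Among the members, Slc2a1 and Bsg had r = 0.96, Slc16a1 and Bsg 0.91, and Slc16a3 and Bsg 0.01.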

How the data were processed

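The deposited RNA-seq files hold estimated counts and TPM per transcript, which the authors made with Salmon 0.14.0 against GENCODE M21 transcripts (GRCm38). Both were summed per gene identifier, and counts were rounded. For the 27 symbols with more than 1 identifier, the identifier with the highest mean TPM was kept. Groups came from the sample labels. Tests used edgeR 4.0.16 (filterByExpr, TMM, quasi-likelihood F test, Benjamini-Hochberg adjustment over all protein-coding genes that passed the filter) in R 4.3.3, with DESeq2 1.42.0 as an alternative, and the fits were tested on simulated data. Interactions used the 8 cultures read for 36 cycles. Replicates of a culture were wells. The deposited ATAC-seq peak lists hold fold enrichment (a ratio), a score, -log10 p and -log10 q values per peak and library, which the authors called with MACS2 2.1.2 after HISAT2 2.1.0 alignment. Peaks with fold enrichment over 2 and -log10 q over 2 were kept and merged where they overlapped by 1 base. Sequences came from the GRCm38 genome and RefSeq. The 7 genes, the gene lists and the letter strings were chosen with earlier results of these data known. Genes named from lists were those called, at most 4 per list and comparison by size, and 1 gene of these lists is not reported here. Replicate numbers were not taken as a pairing of samples.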

Additional observations from a re-analysis of the deposited data

Results flagged for a closer look

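The effect of stabilized beta-catenin differed between isolation methods for 4 of the 7 genes, by the interaction term of an edgeR fit over the 8 cultures read for 36 cycles, a test chosen after the data were seen. Method B minus method A was 1.89 for Slc16a9 (SE 0.13, adjusted p = 5.34e-05 by edgeR), 1.35 for Slc16a4 (SE 0.13, adjusted p = 0.000146), -0.89 for Slc16a3 (SE 0.11, adjusted p = 0.000421) and 0.30 for Slc16a1 (SE 0.10, adjusted p = 0.0305), all on the log2 scale. On TMM-scaled counts Slc16a9 moved in opposite directions, with every stabilized well below the WT wells in method A and above them in method B. In TPM the method A stabilized wells (15.6 and 15.8) lay between the WT wells (14.6 and 18.5). In the same fit 49.6% of 13356 genes had an adjusted p under 0.05, so 4 of 7 is near the background. Each arm is 1 experiment of 2 wells, so the test sets these experiments against the spread between wells, and method cannot be told apart from experiment or, among WT wells, from mouse genotype. The split between methods follows the study's methods section, which a legend of the study counts differently. Slc2a1 (-0.07, adjusted p = 0.565), Slc2a3 (-0.71, adjusted p = 0.237) and Bsg (0.00, adjusted p = 0.982) did not pass the threshold of this edgeR test. Among the WT and stabilized cultures no library stood apart from its group in the TPM of a member by Dixon's criterion (14 tests), and the sorted groups of 2 libraries were too small for it.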

How the results depend on the processing

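Slc16a1, Slc16a3, Slc16a4 and Bsg in WT culture, and Slc2a1, Slc16a1, Slc16a4, Slc16a9 and Bsg in the comparison of sorted cells, kept their direction and their call under every alternative run (21 and 13). Leaving out 1 sorted library leaves an arm of 1, which is assumed to vary like the other groups, and without GFP-positive replicate 1 or GFP-negative replicate 1 or 2 Slc16a4 was at 6.32, 8.17 and 6.29 in sorted cells (6.93 before), and Slc16a1 at 4.46 without GFP-positive replicate 1 (5.21 before). Genes called in WT culture against acute ECs (1866 higher, 1409 lower) became 3160 and 2825 with no TPM minimum, and 834 were lower with wells summed. In GFP-positive against GFP-negative cells (1254 higher, 1142 lower), 2980 were lower with no TPM minimum and 657 higher with the length offset, where, as with protein-coding transcripts only, 0 members were lower. With library size as the only scaling the median of all genes moved by 0.21 (WT culture against acute ECs) and -0.38 (sorted cells) on the log2 scale, and no member changed its call. Leaving out 1 library at a time gave 1312 to 1901 genes higher and 1109 to 1437 lower in WT culture with 4 to 5 members lower, 663 (without GFP-negative replicate 2) to 1662 higher (669 without GFP-negative replicate 1) and 1117 to 1167 lower in sorted cells, and 0 to 0 in stabilized cultures. Stabilized against WT culture gave 0 calls each way, against 15 and 3 with DESeq2, 692 and 118 in method A, 138 and 36 in method B at 36 cycles (with 2 members higher), and 66 and 10 with isolation method as a term. Directions turned for Slc2a3 (0.28), Slc16a3 (0.18) and Slc16a4 (-0.0046) in method A, and for Slc16a9 in method B (1.07), with method as a term (0.13) and without WT replicate 1 (0.13) or 2 (0.15) (-0.25 to 0.15 over the 10 libraries left out in turn), and the cause was not tested. Under the stricter peak filter 4 regions were acute only and 9 open in both (2 and 19 before). Low counts limit Slc2a3 in cultures and Slc16a3 in acute ECs.

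Same-numbered libraries deviated together with r of -0.04 and 0.02 (WT culture against acute ECs), 0.07 and 0.07 (sorted cells), and 0.53, 0.52, 0.01 and 0.07 (stabilized against WT culture). The numbers were not taken as a pairing, but these values cannot exclude one. With 2 libraries in each sorted group, the r values of sorted cells are equal by construction. With the replicate block 149 genes were higher and 24 lower in stabilized cultures, no member was called, and Slc2a3 (0.039) and Slc16a3 (0.50) changed sign.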

Other observations

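Seen by family, the mix of transporters changed with culture. In acute ECs Slc16a1 held 49.0% of the summed TPM of 14 SLC16 genes, Slc16a4 16.2% and Slc16a9 2.89%. In WT cultures Slc16a3 held 49.5%, Slc16a1 16.4%, Slc16a9 10.9% and Slc16a4 4.85%, and the stabilized cultures held nearly the same mix, with Slc16a3 at 47.9% and Slc16a1 at 15.8%. The share of Slc16a3 ranged from 32.0% to 72.2% over the WT cultures. Slc2a1 kept 91.9% to 95.7% of the summed TPM of 12 facilitative glucose transporter genes in WT cultures and 93.6% to 93.9% in stabilized cultures.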
